A study of Mus musculus with 20 samples.

Results

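The 7 genes described here belong to 3 vasoactive systems and were followed across cultured and uncultured mouse lung cells: the precursor Agt and the receptors Agtr1a and Agtr2 of the angiotensin system, the adrenergic receptors Adra1b and Adra1d, and the ligand Edn1 and receptor Ednra of the endothelin system. They are 7 of the 67228 genes in the deposited table, or 7 of the 18012 genes with values. The 7 genes were picked by symbol with their levels in these libraries already known, so their levels and differences are given as a description and carry no test. RNA was sequenced from lung cells of male C57BL/6 mice with no disease and no chemical treatment, released by collagenase digestion. The digest was cultured for 4 days on flat plates (2D) or encapsulated in collagen hydrogels (3D), passaged, and kept for 2 more days on the same or the other substrate. The names of the 4 culture groups give the first substrate and then the second: 2D-2D, 3D-2D, 2D-3D and 3D-3D. The remaining group, Sort_Fib in the labels and called sorted here, was not cultured and was depleted of CD45+, EpCAM+ and CD31+ cells with paramagnetic particles. The labels describe that depletion for the sorted cells, while the cultures started from the digest. Each group had 4 libraries, and nothing in the labels says whether the 4 came from separate animals, so the spread between libraries may be technical.

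The peptide hormone angiotensin is cut from angiotensinogen, the product of Agt, by renin and then by angiotensin-converting enzyme, and acts through the receptors encoded by Agtr1a and Agtr2. Noradrenaline acts on alpha-1 adrenergic receptors, of which Adra1b and Adra1d encode a pair of subtypes, and endothelin-1, cut from the product of Edn1 by endothelin-converting enzyme, acts on the receptor encoded by Ednra. The AT1, alpha-1 and endothelin A receptors all couple to Gq proteins, which raise calcium and drive contraction in smooth muscle and in myofibroblasts, the contractile fibroblasts of wound repair and scarring.

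The cultured libraries held 19.67 to 20.33 M counts each (M, 1e+06) and the sorted ones 11.66 to 13.95 M. Levels are CPM, the counts of a gene per 1e+06 counts of its library, after trimmed-mean (TMM) scaling over the 20 libraries, and differences are log2 fold changes with a standard error (SE) from edgeR fits over all genes. Replicate 3 of 3D-3D stood apart, with chi-square values of 32.62 to 39.31 per degree of freedom against the other 3D-3D libraries, where every other pair within a group was at or below 25.58. Fibroblast markers were present in all groups, their summed level averaging 8308 to 16836 CPM. The sorted libraries also held endothelial, epithelial and lymphocyte markers at 2385, 2088 and 562 CPM, and macrophage markers were at 3439 to 7639 CPM in the cultures and 1625 CPM in the sorted libraries. Epithelial markers averaged 52.8 CPM in 2D-2D, 23.6 CPM in 2D-3D, 151 CPM in 3D-2D and 507 CPM in 3D-3D. In such bulk RNA, fewer cells of a type and less RNA per cell cannot be told apart.

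The level of 5 of the 7 genes separated the cultures by the second substrate, whichever substrate came first. Agt and Ednra were higher on gel than on plastic in every library of either comparison, and Adra1b, Adra1d and Edn1 were lower. Of the 7 genes, 6 passed the filter on low counts and Agtr2 did not. Between 2D-3D and 2D-2D the libraries of 6 of the 7 genes did not overlap, Agtr2 among them, where 65.6% of all genes tested did not. Between 3D-3D and 3D-2D it was again 6 of 7, beside 61.5% of all genes, and between 3D-3D and 2D-2D it was 5 of 7, beside 65.5%. Since these genes were chosen for this pattern, nothing is read from those counts.

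**Figure D1:**
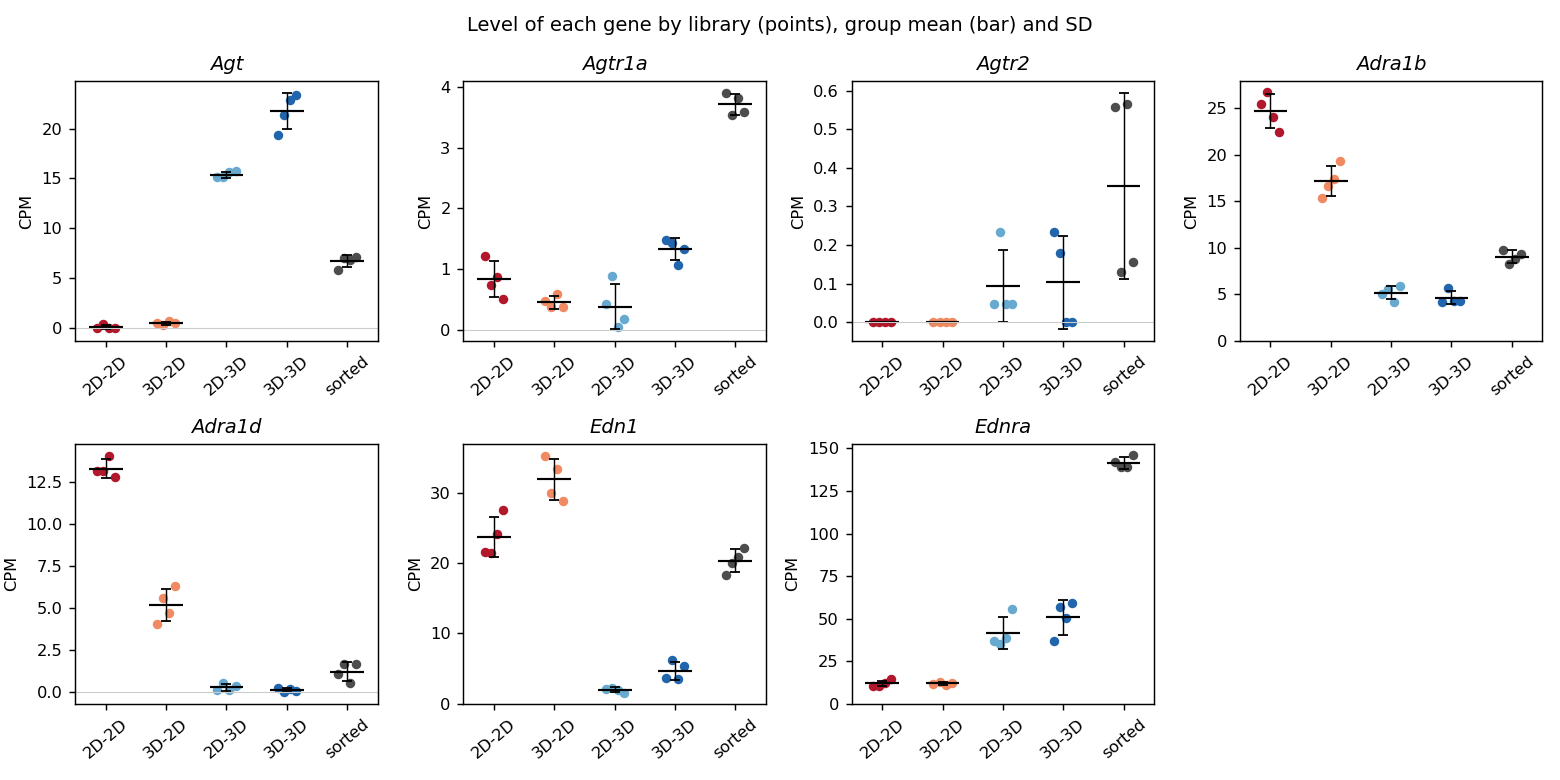
Level in CPM (y axes, each with its own scale) of the 7 genes in each of 20 libraries (points) by group, with the group mean (horizontal bar) and SD (vertical bar, n = 4). Agt and Ednra sit higher in both groups that ended on gel (2D-3D and 3D-3D) than in both that ended on plastic, and Adra1b, Adra1d and Edn1 sit lower.

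Agt (gene ID 11606), the only source of angiotensin peptides, lies on the minus strand of chromosome 8 (GRCm38, 124556534 to 124569706) and is protein coding. The 300 bases around its transcription start (RefSeq, GRCm38.p6, chr8:124569657-124569956, minus strand, 250 bases before to 50 after the start) are shown because of the 6 genes that could be fitted this one had the largest gel-to-plastic ratio after a first culture on plastic. Capitals here and below mark matches to 5 motifs searched on both strands. The AP-1 motif was searched as TGANTCA and the binding motif of the GATA factors as GATAA. The motif of TEAD factors was searched as CATTCC, and the TATA box as TATAAA. The remaining motif was the CArG box.
Agt: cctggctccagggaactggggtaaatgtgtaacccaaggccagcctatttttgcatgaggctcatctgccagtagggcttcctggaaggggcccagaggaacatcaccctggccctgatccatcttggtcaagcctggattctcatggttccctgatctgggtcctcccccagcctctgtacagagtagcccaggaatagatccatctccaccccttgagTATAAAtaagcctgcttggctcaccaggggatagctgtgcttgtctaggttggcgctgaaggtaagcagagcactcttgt
The Agt window held a TATA box 30 to 25 bases before the start. A TATA box was found in 13.6% of 32544 mouse promoter windows of the same length, and none of the other 4 motifs was found in this one. A match describes letters in the window and no more.

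Agt was nearly absent from cells kept on plastic throughout. Its levels in the 4 libraries of 2D-2D were 0, 0.4, 0 and 0.0566 CPM, and in 3D-2D they were 0.529, 0.326, 0.707 and 0.488 CPM. In 2D-3D they were 15.1, 15.1, 15.6 and 15.7 CPM, and in 3D-3D 19.4, 21.4, 22.9 and 23.4 CPM. All 8 gel-ended libraries lay above all 8 plastic-ended ones, and they also lay above the sorted cells, at 5.85, 7.07, 6.86 and 7.18 CPM. The order of the group means was 2D-2D, 3D-2D, sorted, 2D-3D and 3D-3D, and only 2D-2D and 3D-2D overlapped as neighbours.

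The log2 fold change of Agt was 6.99 ± 0.34 (SE) for 2D-3D against 2D-2D and 5.39 ± 0.26 for 3D-3D against 3D-2D. The first value rests on 8 counts in 2D-2D, 7 of them in replicate 2. The ratio of summed scaled counts was 134 (exact 95% interval 67.8 to 311, counting error only), and without replicate 2 it was 803 (144 to 31700), with a fitted log2 fold change of 9.24. The 3D-3D to 2D-2D difference of 7.48 ± 0.33 became 9.72 without the same library. Between the groups that ended on gel the difference was small beside these, at 0.49 ± 0.17 for 3D-3D against 2D-3D, with no overlap of libraries.

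Edn1 (gene ID 13614), the precursor of endothelin-1, a strong vasoconstrictor, lies on the plus strand of chromosome 13 (GRCm38, 42301476 to 42307990). Its promoter window (RefSeq, GRCm38.p6, chr13:42301226-42301525, plus strand) is shown beside that of its receptor, since the levels of both separated by substrate in opposite directions.
Edn1: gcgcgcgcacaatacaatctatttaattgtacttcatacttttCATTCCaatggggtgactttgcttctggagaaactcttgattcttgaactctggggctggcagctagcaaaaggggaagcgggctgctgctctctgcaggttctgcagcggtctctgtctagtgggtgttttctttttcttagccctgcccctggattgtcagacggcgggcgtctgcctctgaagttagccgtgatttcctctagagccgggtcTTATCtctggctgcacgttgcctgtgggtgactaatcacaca
The window held a TEAD motif 207 to 202 bases before the start and, on the other strand, a GATA motif 8 to 12 bases after it. The TEAD motif was in 14.6% of the promoter windows and the GATA motif in 25.3%.

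Edn1 was high on plastic and low on gel in the cultures. Its levels were 21.6, 21.5, 24.2 and 27.5 CPM in 2D-2D and 35.3, 30, 33.4 and 28.9 CPM in 3D-2D. They were 2.14, 2.28, 1.87 and 1.53 CPM in 2D-3D, whereas 3D-3D had 3.64, 6.17, 3.56 and 5.3 CPM. The 4 culture groups did not overlap with each other, and their order was 2D-3D, 3D-3D, 2D-2D and 3D-2D. The sorted cells, at 18.3, 20, 20.8 and 22.2 CPM, overlapped 2D-2D and no other group, with both gel-ended groups below them and 3D-2D above them by 0.65 ± 0.13 on the log2 scale.

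The log2 fold change of Edn1 was -3.59 ± 0.18 for 2D-3D against 2D-2D and -2.77 ± 0.16 for 3D-3D against 3D-2D. A first culture in gel went with a higher level at the end on either substrate, by 0.42 ± 0.14 between the groups that ended on plastic and by 1.24 ± 0.19 between those that ended on gel. The sorted libraries held markers of endothelial cells, a known source of endothelin-1, at 2385 CPM summed over 12 genes, against 16.6 to 103 CPM in the culture groups. By culture group, the mean endothelial sums were 16.6 (2D-2D), 17.2 (3D-2D), 31.6 (2D-3D) and 103 CPM (3D-3D). Mean Edn1 levels, listed by group in that sequence, were 23.7, 31.9, 1.96 and 4.67 CPM. The part of endothelial cells in the Edn1 levels was not tested.

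The angiotensin receptors were scarce. Agtr1a (gene ID 11607, chromosome 13, plus strand, GRCm38, 30336441 to 30382867) encodes the main AT1 receptor of the mouse. Its levels were 1.22, 0.742, 0.868 and 0.509 CPM in 2D-2D, 0.428, 0.886, 0.048 and 0.186 CPM in 2D-3D, and 0.476, 0.38, 0.599 and 0.38 CPM in 3D-2D. In 3D-3D they were 1.49, 1.44, 1.07 and 1.34 CPM, and in the sorted cells 3.9, 3.53, 3.82 and 3.59 CPM. The sorted cells lay above every cultured library, and 3D-3D lay above 2D-3D and 3D-2D but overlapped 2D-2D.

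Agtr1a was the 1 gene of the 6 whose gel-against-plastic difference had opposite signs after the 2 first cultures. Its log2 fold change was -1.09 ± 0.51 for 2D-3D against 2D-2D, with overlapping libraries, and 1.53 ± 0.48 for 3D-3D against 3D-2D, with none. The difference between the 2 was 2.62 ± 0.70. Each cultured library held 1 to 32 counts of Agtr1a, and replicate 2 of 2D-3D held 19 of the 33 counts of its group. Without that library the first value was -1.89 and the difference 3.41. Without replicate 3 of 3D-3D, the library that stood apart, Agtr1a in 3D-3D lay above 2D-2D as well.

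Agtr2 (gene ID 11609, chromosome X, plus strand, GRCm38, 21484544 to 21489164) encodes the AT2 receptor, which is best known from fetal tissue and opposes many AT1 effects. It had no count in any library of 2D-2D or 3D-2D, which at this depth allows up to 0.043 and 0.0405 CPM (3 counts over the group, counting error only). Over the 4 libraries it had 8 counts in 2D-3D, 9 in 3D-3D and 20 in the sorted cells. In 2D-3D every library had at least 1 count, with 5 in replicate 2, while replicates 3 and 4 of 3D-3D had none. With 2D-2D set to 3 counts, the sorted level was 8.21-fold higher, leaving out the counting error of the 20 sorted counts.

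Adra1b (gene ID 11548, chromosome 11, minus strand, GRCm38, 43774606 to 43901210) and Adra1d (gene ID 11550, chromosome 2, minus strand, GRCm38, 131545850 to 131562283) encode receptors that drive contraction of vessel walls in response to noradrenaline. RefSeq listed 2 promoter windows for Adra1b, and the upstream one (GRCm38.p6, chr11:43901188-43901487, minus strand) is shown because it held the 1 AP-1 motif found in the windows of these genes.
Adra1b: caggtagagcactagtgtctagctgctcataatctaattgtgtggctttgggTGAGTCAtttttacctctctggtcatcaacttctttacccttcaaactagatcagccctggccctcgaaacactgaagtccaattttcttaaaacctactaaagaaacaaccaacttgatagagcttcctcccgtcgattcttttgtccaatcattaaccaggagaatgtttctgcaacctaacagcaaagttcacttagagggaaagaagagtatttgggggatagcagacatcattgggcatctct
The AP-1 motif lay 198 to 192 bases before the start, and 7.79% of the promoter windows held one. The other Adra1b window held none of the 5 motifs.

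Both receptors were highest in 2D-2D and lowest in the gel-ended cultures. Adra1b was at 25.5, 26.8, 24.1 and 22.5 CPM in 2D-2D and at 15.4, 16.7, 17.4 and 19.3 CPM in 3D-2D. It was at 5.04, 5.59, 4.23 and 5.86 CPM in 2D-3D, at 4.2, 5.67, 4.3 and 4.33 CPM in 3D-3D, and at 9.82, 8.25, 8.77 and 9.37 CPM in the sorted cells. The order of the groups was 3D-3D, 2D-3D, sorted, 3D-2D and 2D-2D, with overlap between 3D-3D and 2D-3D only.

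Adra1d had the steeper contrast. Its levels were 13.2, 13.2, 14.1 and 12.8 CPM in 2D-2D and 4.07, 5.6, 4.73 and 6.29 CPM in 3D-2D. In 2D-3D they were 0.0952, 0.513, 0.0961 and 0.372 CPM, in 3D-3D 0.233, 0, 0.146 and 0.0461 CPM, and 1.05, 1.64, 0.495 and 1.64 CPM in the sorted cells. The gel-ended libraries held 0 to 11 counts each, and the lowest sorted library was within the range of 2D-3D.

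For Adra1b the log2 fold change was -2.25 ± 0.13 for 2D-3D against 2D-2D and -1.89 ± 0.13 for 3D-3D against 3D-2D. For Adra1d the same differences were -5.59 ± 0.34 and -5.54 ± 0.42. Among the groups that ended on plastic, a first culture in gel went with lower levels of both, by -0.53 ± 0.12 for Adra1b and -1.38 ± 0.24 for Adra1d, with no overlap of libraries. Among those that ended on gel, the libraries of 3D-3D and 2D-3D overlapped for both genes. Replicate 1 of 3D-3D held 5 of the 9 Adra1d counts of its group, and without it the difference from 3D-2D was -6.24.

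Within a library, the ratio of the 2 receptors does not depend on the scaling. The mean log2 ratio of Adra1d to Adra1b counts (0.5 added to each) was -0.89 ± 0.12 (SD, n = 4) in 2D-2D and -1.74 ± 0.18 in 3D-2D. It was -4.46 ± 0.97 in 2D-3D, -5.67 ± 1.74 in 3D-3D and -3.01 ± 0.79 in the sorted cells. No library that ended on gel reached the range of either plastic-ended group.

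Ednra (gene ID 13617, chromosome 8, minus strand, GRCm38, 77663031 to 77724464) encodes the endothelin A receptor, the main contractile receptor for endothelin-1. Its promoter window (RefSeq, GRCm38.p6, chr8:77724403-77724702, minus strand) held none of the 5 motifs and is printed for comparison with that of Edn1.
Ednra: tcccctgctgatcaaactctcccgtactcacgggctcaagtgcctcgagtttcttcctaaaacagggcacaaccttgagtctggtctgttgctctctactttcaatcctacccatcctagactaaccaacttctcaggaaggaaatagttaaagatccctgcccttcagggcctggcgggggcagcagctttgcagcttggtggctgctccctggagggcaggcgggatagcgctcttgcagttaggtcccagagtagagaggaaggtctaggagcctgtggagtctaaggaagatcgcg
The window of Agtr2 also held none, and RefSeq windows were matched for 5 of the 7 genes, not for Agtr1a or Adra1d.

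Ednra was lowest on plastic, intermediate on gel and highest in the sorted cells. It was at 10.6, 10.5, 11.9 and 14.2 CPM in 2D-2D and at 11.7, 12.8, 11.1 and 12 CPM in 3D-2D. It was at 36.9, 34.9, 38.4 and 55.8 CPM in 2D-3D, at 36.6, 57, 50.3 and 59 CPM in 3D-3D, and at 142, 139, 139 and 146 CPM in the sorted cells. The 2 plastic-ended groups overlapped each other, as did the 2 gel-ended groups, and the sorted cells lay above all cultures.

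The log2 fold change of Ednra was 1.82 ± 0.16 for 2D-3D against 2D-2D and 2.09 ± 0.16 for 3D-3D against 3D-2D. The first substrate made little difference, 0.00 ± 0.17 between the groups that ended on plastic and 0.28 ± 0.15 between those that ended on gel. The gel-ended cultures stayed below the sorted cells, by -1.77 ± 0.13 in 2D-3D and -1.48 ± 0.13 in 3D-3D, where the plastic-ended ones were at -3.58 ± 0.15 and -3.57 ± 0.15.

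Because ligand and receptor lay at opposite ends, the balance of Edn1 to Ednra counts turned over with the substrate. The mean log2 ratio was 1.01 ± 0.04 (SD, n = 4) in 2D-2D and 1.42 ± 0.20 in 3D-2D, and it was -4.38 ± 0.55 in 2D-3D, -3.45 ± 0.26 in 3D-3D and -2.80 ± 0.11 in the sorted cells. The ratio was computed after the levels had been seen. It lay above 0 in every plastic-ended library and below 0 in every gel-ended and sorted one.

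**Figure D2:**
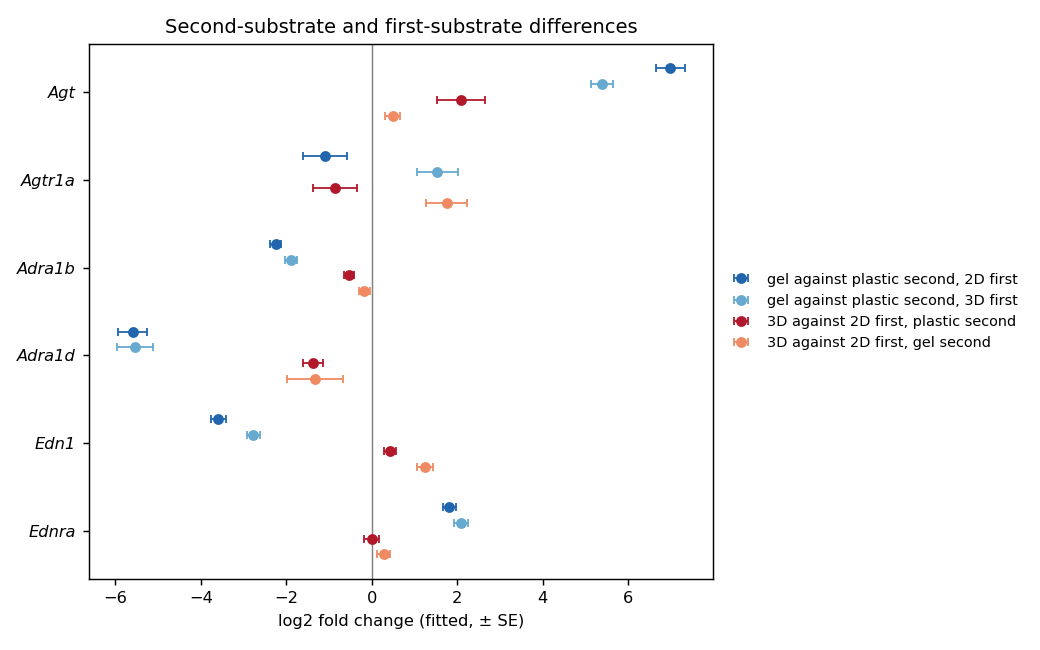
Fitted log2 fold change with its SE (x axis) of 6 genes (y axis; Agtr2 had too few counts) for the 4 comparisons that change one culture step. The blue points (second substrate) lie far from 0 for every gene except Agtr1a, from -5.59 for Adra1d to 6.99 for Agt, and the red and orange ones (first substrate) lie nearer to 0 except for Agtr1a.

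The differences with the first substrate were smaller than those with the second for each of the 5 fitted genes other than Agtr1a. Between 3D-2D and 2D-2D the libraries of 3 of the 7 genes did not overlap (Edn1 higher, Adra1b and Adra1d lower in 3D-2D), beside 26.4% of all genes tested. Between 3D-3D and 2D-3D it was also 3 of 7 (Agt, Agtr1a and Edn1, all higher in 3D-3D), beside 24.8% of all genes.

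Against the sorted cells, Agt was the only gene of the 7 above the sorted range in both gel-ended groups. It was higher by 1.19 ± 0.17 in 2D-3D and 1.69 ± 0.17 in 3D-3D. Libraries did not overlap with the sorted ones for 6 of the 7 genes in 2D-2D, 5 in 2D-3D, 7 in 3D-2D and 6 in 3D-3D, beside 82.9%, 74.8%, 81.4% and 72.5% of all genes tested. The counts for 2D-2D and 3D-2D include Agtr2, which did not pass the filter on low counts. Of the 6 genes that passed it, 5, 5, 6 and 6 did not overlap, in the same order. Adra1b and Adra1d were above the sorted range on plastic, by 1.45 ± 0.12 and 3.46 ± 0.31 in 2D-2D, and Adra1b was below it on gel, by -0.80 ± 0.13 in 2D-3D and -0.97 ± 0.13 in 3D-3D.

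The remaining alpha-1 subtype, Adra1a, was far higher in the sorted cells than in any culture. It was at 83.1, 80.3, 72.9 and 82.9 CPM there and at 0.116 to 1.27 CPM in the 16 cultured libraries. Its log2 fold change against the sorted cells was -8.59 ± 0.30 in 2D-2D (edgeR quasi-likelihood test, Benjamini-Hochberg adjusted p = 3.07e-18) and -6.99 ± 0.25 in 3D-3D (adjusted p = 8.91e-18).

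Divided by the total length of annotated exons, the 3 subtypes can be set side by side. That length joins the exons of all annotated transcripts: 8728 bases for Adra1a, 3382 for Adra1b and 1899 for Adra1d. Which transcripts were present was not tested, and a shorter transcript would raise the value of its gene. In the sorted cells Adra1a was at 9.14 ± 0.548 CPM per kb (SD, n = 4), Adra1b at 2.68 ± 0.204 and Adra1d at 0.634 ± 0.289. In 2D-2D Adra1b and Adra1d were near each other, at 7.31 ± 0.542 and 7.02 ± 0.295 CPM per kb, and their libraries' spreads overlapped. In 3D-3D Adra1b was at 1.37 ± 0.207 CPM per kb, Adra1a at 0.0718 ± 0.0555 and Adra1d at 0.0561 ± 0.055.

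**Figure D3:**
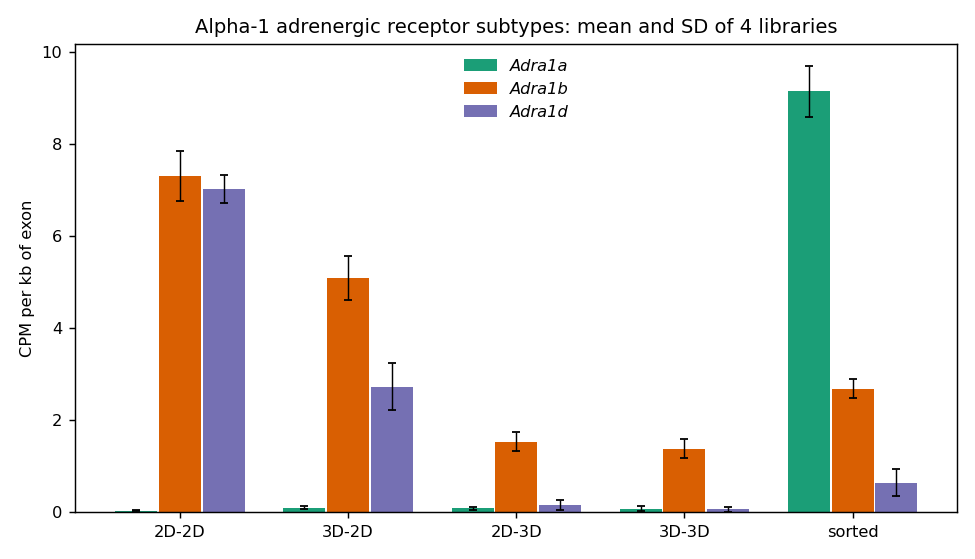
Level per exon length (y axis, CPM per kb) of the 3 alpha-1 adrenergic receptor genes in the 5 groups (x axis); bars are means and error bars SD of 4 libraries. The sorted cells are led by Adra1a at 9.14, 2D-2D by Adra1b and Adra1d at 7.31 and 7.02, and the gel-ended groups by Adra1b, at 1.53 in 2D-3D and 1.37 in 3D-3D.

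Around these 7 genes, 78 further genes of the renin-angiotensin, adrenergic and endothelin systems and of Gq signalling were listed, and 74 of them had values. Between cultures 54 were tested. For 2D-3D against 2D-2D, 25 rose and 15 fell, 74.1% of the 54 beside 71.2% of all genes tested, with a median log2 fold change of 0.19 beside 0.04. For 3D-3D against 3D-2D, 18 rose and 22 fell, 74.1% beside 70.5%, with a median of -0.11 beside 0.07. Scaling by library size alone made the second split 23 higher and 14 lower. Against each other, 3D-3D and 2D-2D had 25 higher and 15 lower list genes, 74.1% beside 73.5% of all genes, and 34 higher and 11 lower under that other scaling. The first substrate moved fewer genes, with 20 higher and 2 lower in 3D-2D than in 2D-2D (40.7% beside 20.4% of all genes) and 16 higher and 13 lower in 3D-3D than in 2D-3D (53.7% beside 27.7%). Of the genes that passed the test in both gel-against-plastic comparisons, which share no library, 28 of 32 (87.5%) moved in the same direction, beside 96.8% of all genes that passed in both. The other 4, Nln, Ctsd, Arrb2 and Prkcb, rose after plastic and fell after gel, and were picked out once their values had been seen.

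**Figure D4:**
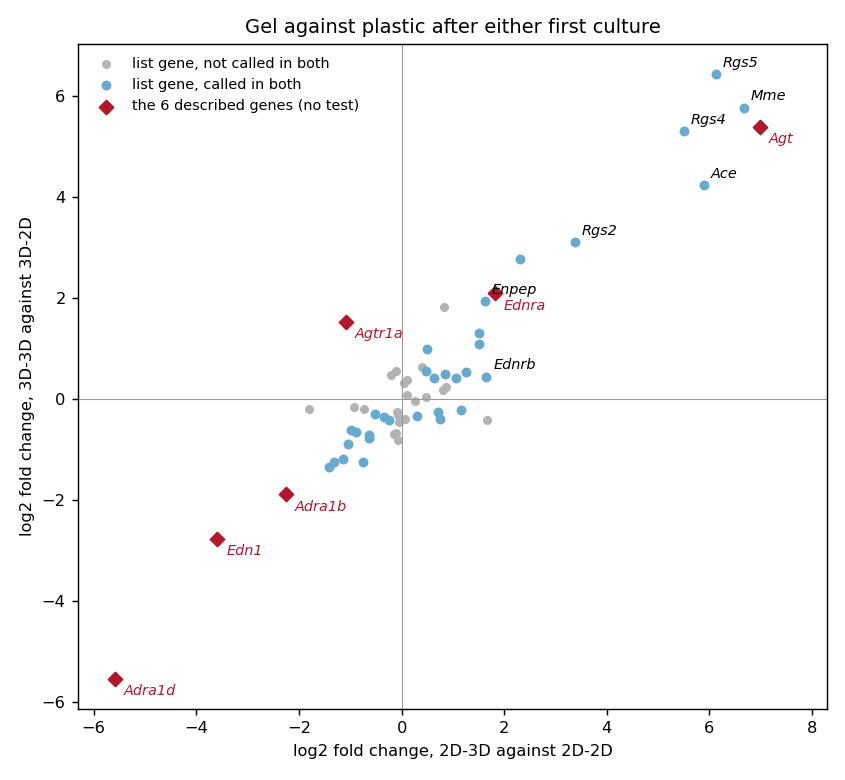
Log2 fold change of gel against plastic after a first culture on plastic (x axis) and in gel (y axis) for the 54 tested pathway genes (circles) and 6 of the 7 described genes (diamonds). Rgs5, Rgs4, Mme and Ace lie high on both axes beside Agt, and Adra1d lies lowest on both.

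In the renin-angiotensin list, the membrane peptidases Ace, Mme and Enpep rose on gel after either first culture. For 2D-3D against 2D-2D, 7 of 13 tested rose and 2 fell (69.2% called, beside 71.2% of all genes), and for 3D-3D against 3D-2D, 5 rose and 6 fell (84.6%, beside 70.5%). The membrane peptidase gene Anpep had log2 fold changes of -0.05 (adjusted p = 0.746) and -0.46 (adjusted p = 0.00609), and Lnpep -0.08 (adjusted p = 0.705) and -0.27 (adjusted p = 0.205). Ace, which makes angiotensin II from angiotensin I, was at 2.73, 2.46, 2.83 and 2.83 CPM in 2D-2D and at 188, 146, 142 and 169 CPM in 2D-3D. It was at 6.29, 7.07, 5.99 and 6.73 CPM in 3D-2D and at 89.9, 111, 137 and 156 CPM in 3D-3D. Ace rose by 5.89 ± 0.17 after a first culture on plastic (adjusted p = 1.02e-15) and by 4.24 ± 0.15 after one in gel (adjusted p = 5.22e-15).

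Ace nevertheless stayed below the sorted cells, at 1242, 1154, 1246 and 1272 CPM, by -2.93 ± 0.12 in 2D-3D (adjusted p = 1.27e-16). Ace is also abundant in lung endothelium. The 12 endothelial markers, all of them tested, summed to 29.2 to 33.6 CPM in 2D-3D, 85 to 121 CPM in 3D-3D and 2298 to 2426 CPM in the sorted cells. They summed to 16.3 to 17.1 CPM in 2D-2D and 15.8 to 19 CPM in 3D-2D, and 8 rose and 1 fell for 2D-3D against 2D-2D. For 3D-3D against 2D-3D the log2 fold change of Ace was -0.4 ± 0.12 (adjusted p = 0.0186), with overlapping libraries. Some fits that left out 1 library lost that call. The part of endothelial cells in the Ace levels was not tested.

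Mme, or neprilysin, which turns angiotensin I into angiotensin 1-7, rose by 6.67 ± 0.32 (adjusted p = 3.14e-13) and 5.77 ± 0.27 (adjusted p = 2.61e-13) in the same comparisons. Enpep, the aminopeptidase A that makes angiotensin III, rose by 1.62 ± 0.19 (adjusted p = 1.66e-07) and 1.93 ± 0.18 (adjusted p = 8.46e-09). The cytosolic peptidases Thop1 and Prep fell, by 1.42 and 1.14 on the log2 scale in 2D-3D against 2D-2D and by 1.35 and 1.19 in 3D-3D against 3D-2D. Agtrap, a protein that binds the AT1 receptor, was at mean levels of 62.7 to 69.3 CPM in the cultures and did not pass the test in either comparison (adjusted p = 0.245 and 0.358).

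The genes Ren1 and Mas1 were near 0. The mean level of Ren1, the renin gene, was at most 0.0882 CPM in any group, and that of Mas1, a receptor for angiotensin 1-7, at most 0.0143 CPM. Agtr1b, the second AT1 receptor gene of the mouse, was at 1.95 ± 0.35 CPM (SD, n = 4) in the sorted cells and had a group mean of at most 0.115 CPM in the cultures. Its log2 fold change against the sorted cells was -4.01 ± 0.53 in 2D-2D (adjusted p = 3.12e-07). Agtr1a and Agtr1b are close copies, and reads from one can be counted for the other.

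**Figure D5:**
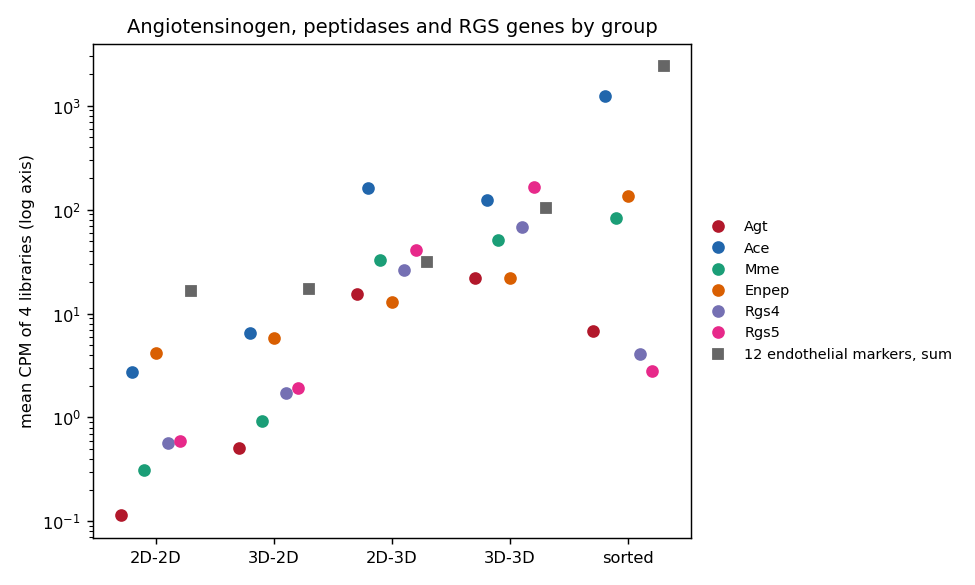
Mean level of 4 libraries (y axis, CPM, log scale) of Agt, 3 peptidase genes and 2 RGS genes in the 5 groups (x axis), with the sum of 12 endothelial markers as squares. Agt, Ace, Mme, Enpep, Rgs4 and Rgs5 are higher in both gel-ended groups than in both plastic-ended ones, and Rgs4 and Rgs5 are low in the sorted cells, where the endothelial sum is 2385 CPM.

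In the adrenergic list, 5 of 13 tested genes rose and 5 fell for 2D-3D against 2D-2D (76.9% called, beside 71.2% of all genes), and 3 rose and 6 fell for 3D-3D against 3D-2D (69.2%, beside 70.5%). Grk6 and Grk5, kinases that switch off activated receptors, fell by 1.31 and 0.64 on the log2 scale in the first comparison and by 1.26 and 0.72 in the second. Of the same kinase family, Grk3 rose by 1.5 ± 0.28 (adjusted p = 5.61e-05) and 1.09 ± 0.25 (adjusted p = 0.000612), and Grk2 had log2 fold changes of 0.06 (adjusted p = 0.424) and -0.40 (adjusted p = 2.11e-05). Arrb1, an arrestin that binds such receptors, had log2 fold changes of 0.48 ± 0.2 (adjusted p = 0.041) and 0.55 ± 0.2 (adjusted p = 0.0185). Its libraries overlapped in the second comparison, where replicate 3 of 3D-3D, the library that stood apart, was at 171 CPM. The rest of 3D-3D was at 62.5 to 74 CPM, beside 62.9 to 67 CPM in 3D-2D. The Arrb1 call for 2D-3D against 2D-2D was lost with DESeq2 and in some fits that left out 1 library. Arrb2, another such arrestin, rose by 0.75 ± 0.07 in the first comparison (adjusted p = 7.62e-09) and was 1 of the 4 genes that fell in the second. The 10 macrophage markers summed to 3439 CPM in 2D-2D, 7639 CPM in 2D-3D, 5471 CPM in 3D-2D and 4913 CPM in 3D-3D, and their part in that result was not tested. The beta receptor gene Adrb1 was low in all cultures, at mean levels of 0.412 to 1.45 CPM, where the sorted cells had 38 CPM. Adra2a, an alpha-2 receptor, rose by 1.82 ± 0.37 in 3D-3D against 3D-2D (adjusted p = 0.000184) to 2.16 CPM, and for 2D-3D against 2D-2D its log2 fold change was 0.82 ± 0.44 (adjusted p = 0.0962).

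Against the sorted cells 65 list genes were tested, and most were lower in culture. The counts were 15 higher and 48 lower in 2D-2D (96.9% beside 84.6% of all genes), 16 and 45 in 2D-3D (93.8% beside 78.1%), 16 and 47 in 3D-2D (96.9% beside 83.9%) and 13 and 44 in 3D-3D (87.7% beside 77.8%). Of 18 tested adrenergic genes 14 were lower and 4 higher in 2D-2D than in the sorted cells, with a median of -3.12 beside -0.17 over all genes, and 14 were lower and 2 higher in 3D-3D. Adrb1 was lower by -4.71 ± 0.24 (adjusted p = 4.35e-15) in 2D-2D. The transporters Slc6a2 and Slc22a3, which clear noradrenaline, had no count in 2D-2D, where the sorted cells had 1108 and 859 counts, and were at least 455-fold and 353-fold lower there. The sorted cells also held more endothelial, epithelial and lymphocyte markers than any culture, and their part in these differences was not tested.

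In the endothelin list only Ednrb, Ece1 and Ece2 were tested between cultures. Ednrb, the endothelin B receptor, was higher on gel after either first culture, by 1.65 ± 0.15 after plastic (adjusted p = 2.92e-09) and by 0.44 ± 0.14 after gel (adjusted p = 0.00856). Over the 54 tested genes of all lists, the log2 change after gel less that after plastic was above 0 for 3 and below 0 for 14 that passed the test (interaction term, 31.5% beside 19.4% of all genes). The difference between the 2 changes of Ednrb was -1.21 (adjusted p = 0.000177), and 3D-2D was above 2D-2D by 0.94 ± 0.15 (adjusted p = 6.49e-05). Ece1, the endothelin-converting enzyme, fell by 0.73 on the log2 scale in 2D-3D against 2D-2D (adjusted p = 6.86e-06) and had -0.21 ± 0.11 in 3D-3D against 3D-2D (adjusted p = 0.101). Edn3, another endothelin, was at 8.6 ± 1.1 CPM (SD, n = 4) in the sorted cells and had a group mean of at most 0.0488 CPM in the cultures.

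Downstream, Rgs5, Rgs4 and Rgs2, which encode proteins that shorten Gq signals, rose on gel after either first culture, as did Rgs1. The rise of Rgs1 was 2.31 ± 0.23 after plastic (adjusted p = 1.74e-08) and 2.77 ± 0.24 after gel (adjusted p = 2.22e-09). The 2 other listed RGS genes, Rgs3 and Rgs16, fell by 0.89 and 0.34 on the log2 scale after plastic and by 0.65 and 0.36 after gel. For 2D-3D against 2D-2D, 12 of 25 tested genes of Gq effectors and RGS proteins rose and 7 fell (76.0% called, beside 71.2% of all genes), and for 3D-3D against 3D-2D, 9 rose and 9 fell (72.0%, beside 70.5%). Rgs5 was at 0.986, 0.286, 0.694 and 0.396 CPM in 2D-2D, at 40.6, 32.7, 46.9 and 45.1 CPM in 2D-3D, at 2.17, 1.68, 2.18 and 1.63 CPM in 3D-2D and at 147, 168, 154 and 192 CPM in 3D-3D. It rose by 6.12 ± 0.21 after plastic (adjusted p = 2.76e-15) and by 6.43 ± 0.17 after gel (adjusted p = 1.22e-16). Rgs4, its neighbour on chromosome 1, rose by 5.50 ± 0.19 (adjusted p = 4.39e-15) and 5.31 ± 0.16 (adjusted p = 8.58e-16).

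Rgs4 and Rgs5 also passed the test above the sorted cells in both gel-ended groups, and in 3D-3D the log2 differences were 4.07 ± 0.15 (adjusted p = 7.34e-18) and 5.87 ± 0.16 (adjusted p = 6.42e-20). Rgs5 is widely used as a marker of pericytes. The 9 listed pericyte markers, which do not include it, had a sum of 572 ± 22.5 CPM (SD, n = 4) in 2D-2D, 299 ± 33.1 in 3D-2D, 486 ± 102 in 2D-3D, 537 ± 132 in 3D-3D and a mean of 395 in the sorted cells. Pdgfrb and Ndufa4l2 made up most of that sum in the cultures, at 276 to 332 and 189 to 208 CPM in 2D-2D. Of 8 tested pericyte markers, 2 were higher and 3 lower for 2D-3D against 2D-2D, and 6 were higher and 1 lower for 3D-3D against 3D-2D. Kcnj8, a pericyte marker picked out once its values had been seen, was at 3.53 to 4.93 CPM in 2D-2D and 9.71 to 15 CPM in 2D-3D. It was at 13.1 to 15.5 CPM in 3D-2D and 24.5 to 32.1 CPM in 3D-3D. Abcc9, picked out likewise, was at 0.457 to 0.868, 4.48 to 8.09, 1.09 to 2.64 and 10.5 to 15.4 CPM in the same order. Higd1b was at 0 in 2D-2D, 2D-3D and 3D-2D, and in 3D-3D only replicate 3 had any, at 0.244 CPM. The part of pericytes in these results was not tested. Rgs2 rose by 3.37 ± 0.11 (adjusted p = 2.12e-15) and 3.10 ± 0.11 (adjusted p = 3.64e-15), and the Gq protein gene Gna11 fell by 1.04 (adjusted p = 2.69e-10) and 0.90 (adjusted p = 3.46e-09) on the log2 scale.

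Contractile marker genes were also at higher levels in the plastic-ended cultures than in the gel-ended ones. The 10 smooth muscle contractile markers summed to 20974 ± 1068 CPM (SD, n = 4) in 2D-2D and 15881 ± 628 CPM in 3D-2D. They summed to 1428 ± 246 CPM in 2D-3D, 1247 ± 285 CPM in 3D-3D and 893 ± 16.2 CPM in the sorted cells, where Edn1 averaged 20.3 CPM. For both gel-against-plastic comparisons 9 of 9 tested markers fell, with median log2 fold changes of -4.31 and -3.95. The part of contractile cells in the levels of Adra1b, Adra1d and Edn1 was not tested.

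The genes whose pattern over the 20 libraries was most like each of these were found by Pearson correlation of log2 CPM among 13201 genes. They are a description, as libraries of a group share their culture. For Agt they were Pcsk5 (r = 0.981), Arl4c (0.980) and Cd302 (0.975), and for Ednra Sema6a (0.991), Add3 (0.990) and C4b (0.990). For Adra1b they were Mprip (0.987), Ehd2 (0.983) and St3gal2 (0.982), and for Adra1d Mprip (0.969), Adra1b itself (0.967) and Zyx (0.966). For Edn1 they were Dusp14 (0.979), Gm39701 (0.970) and Rbmx (0.966), and for Agtr1a 2010300C02Rik (0.937), Smad6 (0.923) and Gstm7 (0.919). Among the 7 genes, Adra1b and Adra1d had r = 0.97, Agt had -0.96 with Adra1b, and Edn1 had -0.33 with Ednra over 20 libraries and -0.89 over the 16 cultured ones.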

How the data were processed

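RNA was measured by sequencing in 20 libraries, 4 in each of the 5 groups that the labels give. Per the submitters' processing notes, HISAT, Bowtie2 and the build GRCm38.p6 were used; which versions and which counting program is not given in the sources used here. Per gene, the authors deposited expected counts, of which 5.982% are not whole (tolerance 1e-06); they were rounded for the tests. Of 67228 genes 18012 had values, and the blank ones and the deposited group averages were not used. Whether counting used strand is not stated, so overlapping genes are uncertain. Coordinates and exon lengths are those of the GENCODE M21 annotation, and promoters those of RefSeq.

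All genes were tested with edgeR 4.0.16 in R 4.3.3: filterByExpr, TMM scaling and quasi-likelihood F tests, with Benjamini-Hochberg adjustment over all genes and calls at an adjusted p below 0.05. Comparisons between cultures used the 16 cultured libraries (13704 genes), and those with sorted cells all 20 (14715 genes). The SE is the size of the fitted log2 fold change divided by the square root of F. For a gene with no count in a group the fold is a bound, with the group set to 3 counts in all. Counting error in the other group is left out of that bound. Genes compared for likeness had a mean of at least 1 CPM (prior count 2). Tests were checked on simulated data.

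The 7 genes, the lists and the naming rule were chosen with earlier results of these data known. The rule named the 7 genes and 17 others, whatever their values, which were also fixed with those earlier results known. For each comparison it added up to 3 higher and 3 lower genes of each list with the largest change. Those were taken from genes called, without overlap and reaching 5 CPM. The 3 genes most like each of the 7 were named too. Alternatives were RLE size factors, library size alone, no filter, DESeq2 1.42.0, limma 3.58.1 (voom), other libraries in the fit, a block for the replicate number, and each library left out in turn. Some results of the naming rule are not reported here. Anpep, Lnpep, Grk2, Grk3, Arrb1, Rgs1, Rgs3 and Rgs16 were named in the gel-against-plastic comparisons after their values were seen.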

Additional observations from a re-analysis of the deposited data

Results flagged for a closer look

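In 4 of 35 sets of 4 libraries, 1 library lay far from the other 3 by Dixon's criterion, which chance alone meets in about 1 of 20 sets. Agt in 2D-2D had 1 library at 0.4 CPM, Agtr2 in 2D-3D had 1 at 0.233 CPM, Adra1b in 3D-3D had 1 at 5.67 CPM, and Ednra in 2D-3D had 1 at 55.8 CPM. The first 2 rest on 7 and 5 counts. All of these libraries are replicate 2 of their group, apart from the Ednra one, which is replicate 4.

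For 13 named list genes the change from plastic to gel differed between the first cultures (edgeR interaction term, adjusted p below 0.05). The log2 change after gel less that after plastic was -1.65 for Ace, -1.38 for Prkcb, -1.21 for Ednrb, -1.14 for Arrb2, -0.98 for Ctsd and -0.74 for Rnpep. It was -0.62 for Plcb2, -0.57 for Ece2, -0.54 for Gna12 and -0.46 for Grk2. It was above 0 for Maob (0.75), Ece1 (0.52) and Rcan1 (0.49). Over all lists 17 of 54 tested genes passed, 3 above and 14 below 0, which is 31.5% beside 19.4% of all genes. The interaction also passed for 9 of 10 macrophage markers, all below 0, with a median of -1.34, and their part in these results was not tested. The calls for Maob and Ece1 were lost in some fits that left out 1 library.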

How the results depend on the processing

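The number of list genes passing the test stayed within 1.5 times the reported number in every alternative run. Other settings gave 38 to 46 for 3D-3D against 2D-2D, 39 to 44 for 2D-3D against 2D-2D, 37 to 45 for 3D-3D against 3D-2D, 20 to 26 for 3D-2D against 2D-2D, 28 to 33 for 3D-3D against 2D-3D and 17 to 19 for the interaction. Leaving out 1 library in turn gave 38 to 41, 37 to 40, 39 to 41, 19 to 24, 24 to 31 and 16 to 22 in the same order. Against sorted cells all alternatives lay between 55 and 66.

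The replicate numbers did not pair the libraries: same-numbered libraries had a median correlation of deviations of -0.001 (24 pairs, -0.098 to 0.148). With the replicate number as a block the counts were 40, 40, 40, 22, 28 and 17 in the order above, and against sorted cells 63 (2D-2D), 63 (3D-2D), 61 (2D-3D) and 58 (3D-3D).

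Library size alone raised the median log2 fold change of all genes by 0.32, 0.279 and 0.229 in the first 3 comparisons and lowered it by -0.325 and -0.245 for 2D-2D and 3D-2D against sorted cells. The split for 3D-3D against 2D-2D was then 34 higher and 11 lower in place of 25 and 15. Under it the signs of Ednra in 3D-2D against 2D-2D, Adra1d in the interaction and Edn1 in 2D-2D against sorted cells turned; all 3 differences were within 2 SE of 0. The sizes of the Agt differences from 2D-2D depend on 1 library. Without 2D-2D replicate 2 they grew to 9.72, 9.24 and 4.34 for 3D-3D, 2D-3D and 3D-2D. In the same order limma-voom gave 8.17, 7.69 and 2.79. The interaction of Agt was -3.85 without 2D-2D replicate 2 and -2.31 with limma-voom. Without 3D-3D replicate 1, Adra1d in 3D-3D was -7.62 from 2D-2D and its interaction -0.65. Agtr1a in 3D-3D against 2D-3D was 2.55 without 2D-3D replicate 2.

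Of 217 pairs of named gene and comparison, 14 lost the call in at least 1 of the alternatives and none changed direction. Among them were Adra1a between cultures, Arrb1 in 2D-3D against 2D-2D, Ace in 3D-3D against 2D-3D and Rgs5 in 3D-2D against sorted cells. Depth limits Agtr2, and Agt on plastic and Adra1d on gel, to a few counts per library.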
